A study of Mus musculus with 12 samples.

Results

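Whole mouse lungs collected before birth at E15.5 (3 libraries) and E18.5 (3 libraries) were compared, which is 6 of the 12 bulk RNAseq libraries of the time course. The members are the libraries whose titles give these 2 ages. The remaining 6 libraries are lungs collected after birth at P5 and P8. All animals were wild-type C57Bl/6 mice of both sexes, with no transgene or treatment. Replicates of a time-point came from 1 litter, so age and litter cannot be told apart, and p-values measure the spread between littermates. The comparison asks which gene programs and which alternative splicing (AS) events differ between the lung at E15.5 and the lung shortly before its first breath.

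At E15.5 the mouse lung is a branching tree of epithelial tubes in a dense mesenchyme. By E18.5 the distal tubes have widened into saccules, and the epithelium that lines them is separating into flat alveolar type 1 (AT1) cells, across which gas will pass, and cuboidal alveolar type 2 (AT2) cells, which make surfactant. In the airways, club cells and multiciliated cells appear. Gene expression was measured as counts on each gene and as CPM, the counts scaled to the mapped reads of a library. CPM is not corrected for transcript length, so that it was compared between libraries for 1 gene and never between genes. Because the lungs were bulk samples, more cells of a type and more RNA per cell cannot be told apart.

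The libraries held 42334697 to 53901957 counts. Lung epithelial markers were present at both ages, with *Epcam* between 205 and 216 CPM and *Nkx2-1*, the transcription factor of lung epithelium, between 177 and 237 CPM in the 6 libraries. E15.5 replicates 1 and 2 stood apart by genes of another organ. The summed level of 8 defining heart muscle markers was 1230 and 1540 CPM in these libraries, against 61.8 CPM in E15.5 replicate 3 and 59.7 to 99.4 CPM at E18.5. The summed level of 8 thymus and T cell markers was 29.7 CPM in E15.5 replicate 2. It was at most 0.839 CPM in the other 5 libraries, so that the sum marked replicate 2 but not replicate 1. *Dntt* and *Cd4* did not follow the sum. Each was at 0.177 CPM in E15.5 replicate 2, against 0.197 and 0.295 CPM in E15.5 replicate 3. The other markers of the 8 were highest in E15.5 replicate 2. *Cd3e* and *Ptcra*, 2 of these markers, were at 0 in E15.5 replicate 3. The main statements on genes lower at E18.5 are therefore given with E15.5 replicate 3 alone as well. Apart from *Hbb-y*, *Hba-x* and *Gpx2*, no gene of the lists that was called lower was also called with that library alone. E18.5 replicate 3 lay nearer to E15.5 than its littermates, with a root mean square log2 difference over all genes tested of 0.26 from E15.5 replicate 3, against 0.36 and 0.37 for E18.5 replicates 2 and 1. E15.5 replicate 3, the library used alone, lay nearer to E18.5 replicate 3 than to E15.5 replicates 1 and 2 (0.31 and 0.42).

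The gene programs with the highest medians were those of multiciliated and AT2 cells, and the sequences that frame the first of these are shown here. Motile cilia genes are known targets of RFX transcription factors, which bind the X-box, a site built from half-sites such as GTTGCC. The letters GTTGCC, searched on both strands (GGCAAC on the other), stood within the 300 bases from 250 before to 50 after the start of 28 of the 52 genes of the ciliated list (64 in all) that were matched to a RefSeq promoter (53.8%), and in 12.7% of all 27025 promoters. A pair of half-sites, GTTNCC followed after at most 3 bases by GGNAAC, stood in 2 of the 52 (3.85%) and in 0.821% of all promoters. It was in 0 of 25 promoters of ciliated genes that rose and in 2 of 27 of those not called. Pairs with other letters were not counted. The half-site was found in 13 of 25 promoters of ciliated genes that rose by E18.5 (52%) and in 15 of 27 promoters of those that were not called (55.6%). The share with the half-site was alike among members that rose and members that were not called. The matches with the highest log2FC are shown 5′ to 3′ on the strand of the gene, in build GRCm38.p6 from RefSeq, with the half-site in capitals.
*Dynlrb2*, chr8:116504924-116505009, plus strand: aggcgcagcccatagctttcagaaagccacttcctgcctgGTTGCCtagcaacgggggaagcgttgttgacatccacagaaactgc
*Ccdc113*, chr8:95534054-95534139, plus strand: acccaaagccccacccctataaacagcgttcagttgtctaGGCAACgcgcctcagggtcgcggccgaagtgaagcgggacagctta
*Deup1*, chr9:15627880-15627965, minus strand: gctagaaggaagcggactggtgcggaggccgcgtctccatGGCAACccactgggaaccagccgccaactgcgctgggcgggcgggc
*Cfap46*, chr7:139683779-139683864, minus strand: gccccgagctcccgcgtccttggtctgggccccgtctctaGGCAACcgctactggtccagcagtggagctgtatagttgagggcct

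Of 15994 genes tested, 254 were higher at E18.5 (1.59%) and 233 were lower (1.46%), by edgeR's quasi-likelihood test with a log2 fold change (log2FC) past 1 in size and a false discovery rate (FDR) under 0.05. At the FDR alone, 1863 genes were higher (11.6%) and 1578 were lower (9.87%). The median log2FC of all genes was -0.01. The 254 higher genes were all higher with E15.5 replicate 3 alone too, and 221 of them (87%) kept a log2FC above 1, with a median of 1.56 against 1.53 from the 3 libraries. The 233 lower genes did not hold to the same degree. Of these, 95 (40.8%) kept a log2FC below -1 with replicate 3 alone, 59 turned to the opposite direction, and the median went from -1.99 to -0.81.

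**Figure D1:**
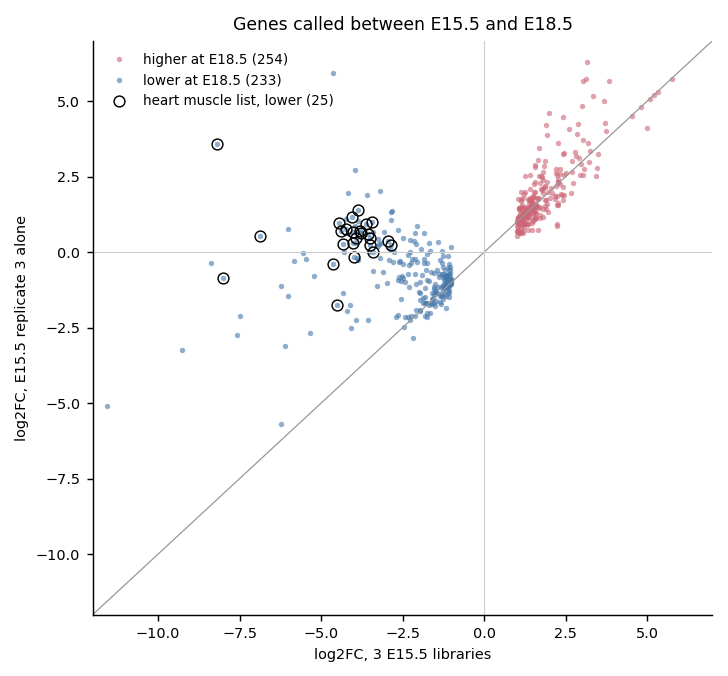
Each point is a gene called between E15.5 and E18.5, with log2FC (E18.5 minus E15.5) from the 3 E15.5 libraries on the x axis and from E15.5 replicate 3 alone on the y axis; the grey diagonal marks equal values. The 254 higher genes lie above 0 on both axes, while 59 of the 233 lower genes, with most of the 25 called genes of the heart muscle list (open circles), lie above 0 on the y axis.

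Multiciliated cells build many motile cilia from centriole-like basal bodies and drive mucus along the airway. Of 64 genes of the ciliated list that were tested, 34 rose, none fell and 30 did not pass both cutoffs, with a median log2FC of 1.19 (-0.01 for all genes). With E15.5 replicate 3 alone, 33 of the 34 kept a log2FC above 1, 14 genes of the list were called, and the median was 1.42. The count of 34 was 20 without E18.5 replicate 1, and again 20 without E18.5 replicate 2. *Foxj1*, the transcription factor of the motile cilia program, was at 11.7, 7.21 and 7.20 CPM at E15.5 and at 41.9, 36.6 and 17.2 CPM at E18.5. Each E18.5 lung was above each E15.5 lung, and the log2FC was 1.88 ± 0.29 (SE, n = 3 per time-point, FDR = 0.0018). *Deup1*, a scaffold of the deuterosome on which many centrioles are made at once, was at 2.97, 1.34 and 1.63 CPM and then at 10.5, 13.6 and 5.35 CPM (log2FC 2.31 ± 0.34, FDR = 0.0014). *Dynlrb2*, a light chain of dynein, was near its floor at E15.5 with 0.274, 0.157 and 0.275 CPM and reached 3.24, 3.52 and 1.25 CPM (log2FC 3.49 ± 0.38, FDR = 0.00043). Again no E15.5 lung reached the lowest E18.5 lung.

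*Mcidas* and *Ccno*, which switch progenitors to the making of many centrioles, rose with log2FC of 1.80 ± 0.32 and 1.04 ± 0.27, the latter with E18.5 replicate 3 (6.15 CPM) below the highest E15.5 lung (6.58 CPM). *Rsph4a*, a part of the radial spoke, rose with a log2FC of 1.94 ± 0.51 (FDR = 0.019), with the same overlap, and *Cdc20b* with 2.42 ± 0.55 (FDR = 0.010). *Rfx2*, an X-box factor, was not called (6.78, 9.12 and 7.55 CPM, then 6.82, 8.35 and 7.05 CPM, FDR = 0.74). Levels after birth are given as a description. *Mcidas* was at 1.86 ± 0.58 CPM at P5 and 2.66 ± 0.56 CPM at P8 (SD, n = 3), against 3.37 to 6.94 CPM in the E18.5 lungs. *Dnah5*, a heavy chain of the outer dynein arm that makes cilia beat, was at 0.26 to 1.53 CPM at E18.5, 7.29 ± 1.04 CPM at P5 and 21.6 ± 6.47 CPM at P8. These *Mcidas*, *Ccno* and *Dnah5* values were chosen after the values were seen. In 210 of the 254 higher genes (82.7%), E18.5 replicate 3 was the lowest of the 3 E18.5 libraries, and *Foxj1*, *Deup1* and *Dynlrb2* were among them. The summed level of the 64 ciliated genes was 186, 178 and 183 CPM at E15.5 and 321, 318 and 207 CPM at E18.5, so that replicate 3 stood above the E15.5 lungs by less than its littermates.

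**Figure D2:**
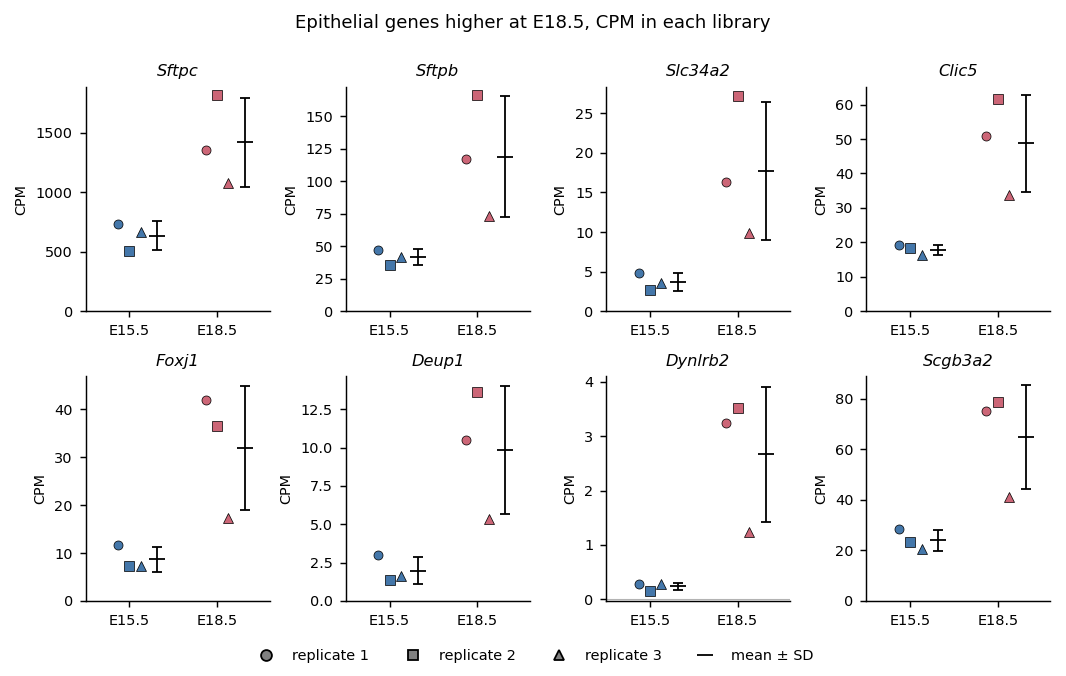
CPM (y axis, linear, from 0) of 8 epithelial genes in each E15.5 and E18.5 library; symbols mark replicates, and the bar beside them is the mean ± SD of 3 libraries. No gene overlaps between the ages, and E18.5 replicate 3 (triangle) is the lowest E18.5 library in each panel, for example 17.2 CPM of *Foxj1* against 36.6 and 41.9 CPM.

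AT2 cell genes rose as a group. Of 24 tested, 11 rose and none fell, with a median log2FC of 0.90, and the median was again 0.90 with E15.5 replicate 3 alone, where 9 of the 11 kept a log2FC above 1 and 6 genes were called. The count of 11 was 5 without E18.5 replicate 2. The group holds surfactant proteins, the enzymes that cut them from their precursors, and parts of the lamellar body in which surfactant is stored. *Sftpc*, which encodes surfactant protein C, was at 736, 505 and 665 CPM at E15.5 and at 1350, 1820 and 1080 CPM at E18.5 (log2FC 1.16 ± 0.18, FDR = 0.0018). *Sftpb*, without which newborn lungs collapse, was at 47.5, 35.4 and 42.05 CPM and then at 117, 166 and 73.2 CPM (log2FC 1.52 ± 0.23, FDR = 0.0016). Both were already present in each E15.5 lung, and for both each E18.5 lung lay above them. *Slc34a2*, the phosphate transporter that clears phosphate freed from surfactant lipid, had the largest log2FC of the list, from 4.89, 2.71 and 3.54 CPM to 16.3, 27.1 and 9.87 CPM (log2FC 2.25 ± 0.31, FDR = 0.0011).

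*Napsa* and *Ctsh*, proteases that mature the surfactant proteins B and C, had log2FC of 1.38 ± 0.25 and 1.24 ± 0.17. *Lamp3*, a membrane protein of the lamellar body, had 1.51 ± 0.22 (FDR = 0.0016). *Sftpd*, a collectin that binds microbes, rose from 0.629, 0.649 and 0.983 CPM to 1.89, 2.32 and 1.48 CPM (log2FC 1.34 ± 0.24, FDR = 0.0034). The 38 genes of fatty acid and phospholipid synthesis held no call, with 7 higher and 4 lower at the FDR alone and a median log2FC of 0.04. *Fasn*, fatty acid synthase, was at 194, 142 and 227 CPM and then at 211, 222 and 190 CPM, and the ages overlapped (FDR = 0.49). The levels before birth were small beside those after it: *Sftpc* was at 12280 ± 811 CPM and *Slc34a2* at 1361 ± 86.5 CPM at P5 (SD, n = 3).

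AT1 cell genes rose in part. Of 21 tested, 2 passed both cutoffs, 12 were higher and 1 lower at the FDR alone, and the median log2FC was 0.46. *Clic5*, a chloride channel family protein of AT1 cells, was at 19.2, 18.2 and 16.3 CPM and then at 50.9, 61.6 and 33.7 CPM (log2FC 1.45 ± 0.17, FDR = 0.00059). *Hopx*, a homeodomain protein that marks AT1 cells, was at 11.5, 12.1 and 10.3 CPM and then at 28.3, 25.4 and 14.9 CPM (log2FC 1.02 ± 0.18, FDR = 0.0030). Both kept a log2FC above 1 with E15.5 replicate 3 alone. *Ager*, the receptor RAGE, passed the FDR but not the fold cutoff (0.96 ± 0.17, FDR = 0.0030), and *Aqp5*, a water channel of AT1 cells, was between 0.66 and 1.59 CPM in all 6 libraries (FDR = 0.85).

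The distal tip, where the progenitors of both alveolar cells lie, had no call among 17 genes tested, with 1 higher and 6 lower at the FDR alone. *Sox9*, a transcription factor of the tip, was at 55.1, 52.4 and 59 CPM and then at 49.9, 36.8 and 33.3 CPM (log2FC -0.46 ± 0.15, FDR = 0.042). *Id2*, which marks the same progenitors, had a log2FC of -0.30 ± 0.06 (FDR = 0.0082). With replicate 3 alone the log2FC was -0.56 for *Sox9* (FDR = 0.16) and -0.30 for *Id2* (FDR = 0.099). For both the E15.5 lungs lay above the E18.5 lungs, with a fold below the cutoff.

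Club cell genes gave 4 higher and 1 lower of 24 tested, with a median of 0.13. The 4 higher genes, *Fmo2*, *Hp*, *Scgb3a2* and *Lypd2*, kept a log2FC above 1 with E15.5 replicate 3 alone. *Scgb3a2*, a secretoglobin of the airway, was at 28.6, 23.2 and 20.49 CPM and then at 75.1, 78.6 and 41.1 CPM (log2FC 1.44 ± 0.24, FDR = 0.0023). *Scgb1a1*, the best known club cell secretoglobin, stayed between 11.3 and 14.5 CPM in all 6 libraries (log2FC 0.15 ± 0.09, FDR = 0.23). Neuroendocrine genes gave 0 higher and 1 lower of 12 tested.

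**Figure D3:**
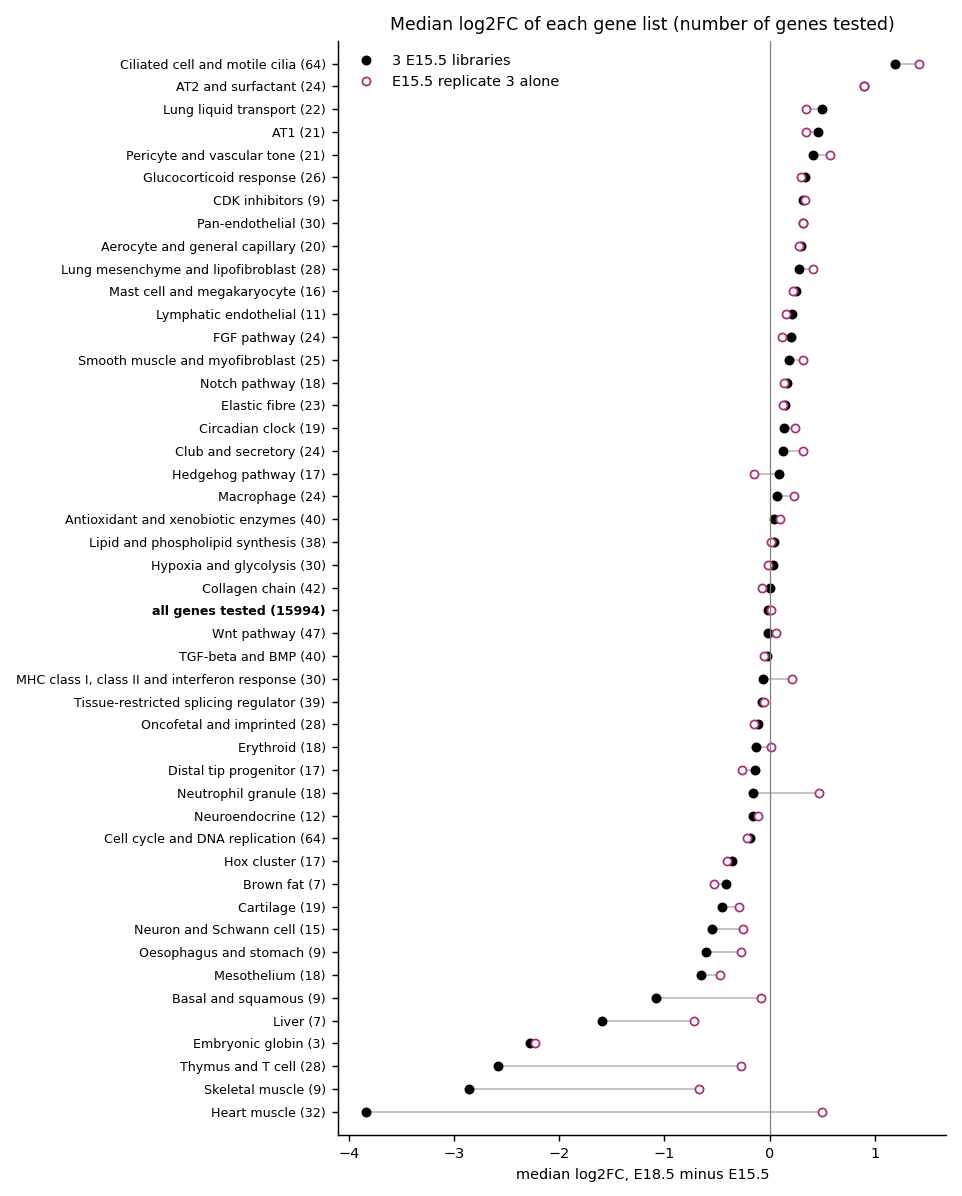
Median log2FC (x axis, E18.5 minus E15.5) of each gene list with at least 3 genes tested, with the number tested in parentheses; filled circles are from the 3 E15.5 libraries and open circles from E15.5 replicate 3 alone. The ciliated (1.19 and 1.42) and AT2 lists (0.90 and 0.90) lie furthest right in both fits, whereas the heart muscle list goes from -3.84 to 0.50.

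Of 30 pan-endothelial genes tested none passed both cutoffs, but 16 were higher and 1 lower at the FDR alone, with a median log2FC of 0.32 in both fits. *Pecam1*, the adhesion molecule that joins endothelial cells, was at 198, 204 and 207 CPM and then at 328, 313 and 290 CPM (log2FC 0.62 ± 0.07, FDR = 0.00065). The replicates of each age stood close together and did not overlap. Of 20 capillary genes 1 rose: *Glp1r* (2.94, 3.85 and 3.74 CPM, then 9.40, 13.9 and 8.66 CPM, log2FC 1.61 ± 0.19, FDR = 0.00064). *Car4*, which marks the aerocyte, was at or below 0.570 CPM in all 6 libraries, and *Ednrb*, another gene of that cell, had a log2FC of 0.41 ± 0.09 (FDR = 0.0088).

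Pericyte genes gave 3 higher and 1 lower of 21 tested, with a median of 0.41. *Higd1b*, a marker of lung pericytes, was at 2.02, 1.34 and 1.42 CPM and then at 8.44, 10.1 and 4.51 CPM (log2FC 2.27 ± 0.26, FDR = 0.00047). *Ace*, the enzyme that activates angiotensin, and *Ndufa4l2* rose with log2FC of 1.25 ± 0.14 and 1.23 ± 0.15, and all 3 higher genes were called with E15.5 replicate 3 alone too. The 1 lower member, *Nppb*, is a cardiac peptide and was at 9.78 and 14.9 CPM in E15.5 replicates 1 and 2 and at 0 in replicate 3.

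The mesenchyme gave few calls. Of 28 genes of lung mesenchyme and lipofibroblasts 2 rose: *Pparg*, the regulator of lipid storage (log2FC 1.504 ± 0.26, FDR = 0.0030), and *Macf1*, a cytoskeletal linker (1.13 ± 0.22, FDR = 0.0051). *Macf1* was lowest in E15.5 replicate 2 (131.9 CPM against 242.7 and 275.6 CPM), and its log2FC was 0.77 with replicate 3 alone. Of 42 collagen chains *Col6a3* rose and *Col20a1* fell. *Col6a3*, a chain of collagen VI, was lowest in E15.5 replicate 2 (70.99 CPM against 126.7 and 149.6 CPM), and its log2FC was 0.66 with replicate 3 alone (FDR = 0.097), against 1.04 from the 3 libraries. *Col1a1* was at 1160, 835 and 1200 CPM and then at 920, 854 and 838 CPM (FDR = 0.19). *Eln*, elastin, was at 651, 839 and 558 CPM and then at 1037, 968 and 790 CPM, which overlapped and missed the FDR (log2FC 0.46 ± 0.16, FDR = 0.057). *Aspn*, a small proteoglycan of connective tissue, rose from 17.4, 16.8 and 12.8 CPM to 35.5, 38.1 and 26.8 CPM (log2FC 1.10 ± 0.15, FDR = 0.0011).

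Hypoxia genes, glucocorticoid targets and fluid transport are programs tied to birth. Of 26 tested genes of the glucocorticoid list 2 rose and none fell, with a median of 0.34. *Hsd11b1*, which makes active glucocorticoid inside the cell, was at 1.87, 1.20 and 1.12 CPM and then at 7.90, 9.21 and 2.60 CPM (log2FC 2.22 ± 0.38, FDR = 0.0029). *Nr3c1*, the glucocorticoid receptor, was at 110, 102 and 108 CPM and then at 170, 161 and 156 CPM (log2FC 0.61 ± 0.06, FDR = 0.00037), whereas *Fkbp5*, a target of the receptor, was between 60.1 and 74.2 CPM in all 6 libraries (FDR = 0.96). Lung liquid transport genes gave 2 higher and 0 lower of 22 with a median of 0.50. *Scnn1a*, the alpha subunit of the epithelial sodium channel that draws fluid out of the air space at birth, was at 3.16, 4.25 and 3.80 CPM and then at 9.18, 11.9 and 5.24 CPM (log2FC 1.24 ± 0.23, FDR = 0.0044). *Aqp1*, the water channel of lung endothelium, was at 49.1, 50.1 and 46.4 CPM and then at 110, 108 and 86.0 CPM (log2FC 1.07 ± 0.10, FDR = 0.00023).

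Of 30 genes of hypoxia and glycolysis 3 rose and none fell, with a median of 0.03. *Egln3*, an oxygen-sensing hydroxylase, was at 22.98, 35.1 and 30.3 CPM and then at 106, 59.8 and 58.7 CPM (log2FC 1.36 ± 0.22, FDR = 0.0021). *Ndrg1* had a log2FC of 1.39 ± 0.19 (FDR = 0.0010). *Ankrd37* was at 12.3 CPM in E18.5 replicate 1 but at 4.32 CPM in replicate 3, close to 4.19 CPM in E15.5 replicate 2 (log2FC 1.13 ± 0.37, FDR = 0.046). *Hif1a* was between 140 and 155 CPM in all 6 libraries (FDR = 0.18). Of 40 antioxidant and xenobiotic genes 2 rose and 2 fell, and *Rora* was the 1 clock gene called of 19, with a log2FC of 1.12 ± 0.14 (FDR = 0.00086).

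Outside the lists, the largest log2FC among genes with a mean of at least 5 CPM and no overlap of the ages were those of *Sec14l3* (2.01 ± 0.32), *AU021092* (1.82 ± 0.29), *G0s2* (1.68 ± 0.22), *Slc6a14* (1.59 ± 0.30), *Kcna2* (1.54 ± 0.26) and *Scn7a* (1.51 ± 0.17). *G0s2*, an inhibitor of triglyceride breakdown, was at 18.6, 20.1 and 23.97 CPM and then at 80.4, 78.6 and 40.3 CPM. *Scn7a*, an ion channel of the sodium channel family, was at 69.5, 59.6 and 80.3 CPM and then at 228, 215 and 151 CPM. Both kept a log2FC above 1 with E15.5 replicate 3 alone (1.47 and 1.30). Over all genes tested, 18.3% were higher and 19.8% lower in CPM at E18.5 with no overlap of the 6 libraries.

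Of the 233 genes lower at E18.5, 19 were called with E15.5 replicate 3 as the lone E15.5 library, in which 25 genes of all tested were called lower (0.156%) and 150 higher (0.938%). In that fit the spread of the lone library is taken from the other groups. The embryonic globins, hemoglobin chains of the first red cells from the yolk sac, fell, and 2 of the 3 were called with replicate 3 alone. *Hbb-y* was at 240, 283 and 263 CPM at E15.5 and at 56.1, 30.8 and 55.5 CPM at E18.5 (log2FC -2.46 ± 0.30, FDR = 0.00071, and -2.48 with replicate 3 alone). *Hba-x* was at 77.2, 61.9 and 65.2 CPM and then at 17.7, 9.30 and 14.7 CPM (log2FC -2.28 ± 0.34, FDR = 0.0015). *Hbb-bh1* had a log2FC of -1.87 ± 0.45 (FDR = 0.013), and of -1.53 with replicate 3 alone (FDR = 0.17). The E15.5 lungs lay above the E18.5 lungs for all 3. The adult chain *Hba-a1* was at 1090, 1010 and 872 CPM and then at 926, 1050 and 908 CPM (FDR = 0.90), and of 18 erythroid genes none was called.

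*Mir17hg* was among the 12 largest falls that held with replicate 3 alone. It is the host transcript of the miR-17-92 cluster, known for high expression in dividing progenitors of the early lung. The transcript was at 9.15, 11.5 and 11.6 CPM and then at 2.42, 3.35 and 4.91 CPM (log2FC -1.59 ± 0.30, FDR = 0.0044, and -1.71 with replicate 3 alone). The mature miRNAs were not measured in these libraries. They are shown as the product of the transcript, from RefSeq on GRCm38.p6 (chromosome 14, plus strand), with the seed (bases 2 to 8) in capitals. The first pair shares 1 seed, and so does the pair of miR-19a-3p and miR-19b-3p.
miR-17-5p: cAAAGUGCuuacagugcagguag
miR-20a-5p: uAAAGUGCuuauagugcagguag
miR-18a-5p: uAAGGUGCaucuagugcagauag
miR-19a-3p: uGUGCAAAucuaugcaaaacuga
miR-19b-3p: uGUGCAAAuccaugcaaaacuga
miR-92a-3p: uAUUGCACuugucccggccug

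Further falls that held with replicate 3 alone were of single genes. *Gpx2*, a glutathione peroxidase of epithelia, was at 14.2, 12.05 and 15.01 CPM and then at 4.35, 3.48 and 6.19 CPM (log2FC -1.55 ± 0.19, FDR = 0.00077). *Slc22a17*, a receptor for lipocalin 2, was at 37.1, 41.9 and 34.6 CPM and then at 16.5, 13.3 and 17.6 CPM (log2FC -1.25 ± 0.11, FDR = 0.00013). *Pappa2*, a protease of IGF binding proteins, and *Shisa3* had log2FC of -1.17 ± 0.19 and -1.15 ± 0.17. *Ly6h*, *Sv2a*, *Pisd-ps1*, *Gm10499* and *Zfp692* complete the 12, with log2FC between -1.62 and -1.12. *Meg3*, an imprinted long noncoding RNA, was at 95.4, 106 and 108 CPM and then at 45.6, 32.5 and 41.9 CPM (log2FC -1.36 ± 0.26, FDR = 0.0047), and with replicate 3 alone its log2FC was -1.44 with an FDR of 0.053, above the cutoff.

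**Figure D4:**
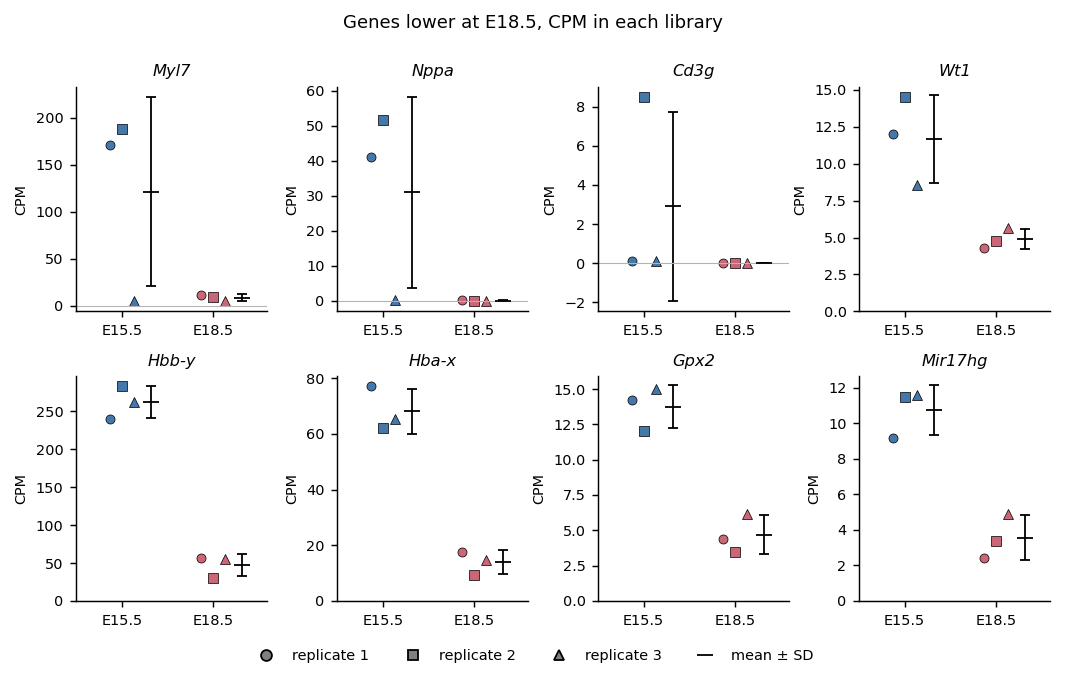
CPM (y axis, linear) of 8 genes lower at E18.5 in each library; symbols mark replicates, and the bar is the mean ± SD of 3 libraries, which reaches below 0 for *Cd3g*. *Hbb-y*, *Hba-x*, *Gpx2*, *Mir17hg* and *Wt1* are higher in all 3 E15.5 lungs, whereas *Myl7* and *Nppa* are high in E15.5 replicates 1 and 2 (171 and 187 CPM of *Myl7*) and *Cd3g* in replicate 2 (8.49 CPM), with replicate 3 near the E18.5 lungs.

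Of 18 genes tested of the mesothelium, the sheet that covers the lung, 5 fell and none rose (2 fell without E18.5 replicate 2), 11 were lower at the FDR alone, and the median log2FC was -0.65. With replicate 3 alone the median was -0.47 and none of the 18 was called lower. *Wt1*, the transcription factor of mesothelium, was at 11.99, 14.5 and 8.54 CPM and then at 4.27, 4.75 and 5.62 CPM (log2FC -1.25 ± 0.22, FDR = 0.0030, and -0.81 with replicate 3 alone). *Tbx18* was at 4.99, 5.09 and 1.97 CPM and then at 0.493, 0.383 and 1.15 CPM (log2FC -2.55 ± 0.49, FDR = 0.0047, and -1.54 with replicate 3 alone). *Wnt2b*, a mesothelial Wnt ligand, was at 20.6, 18.8 and 19.7 CPM and then at 7.88, 9.17 and 12.3 CPM (log2FC -1.004 ± 0.21, FDR = 0.0069, and -1.02 with replicate 3 alone). For *Wt1* and *Tbx18* the replicates with heart genes were the highest, and the epicardium of the heart also expresses both. The part of heart tissue in these values was not tested. *Msln*, mesothelin, went the other way in replicate 3. It was at 4.70, 5.58 and 1.20 CPM and then at 5.83, 5.61 and 3.21 CPM (FDR = 0.57), and was called higher with replicate 3 alone (log2FC 2.01, FDR = 0.041).

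Genes of other organs were among those with the largest negative log2FC over all 3 libraries. Of 32 heart muscle genes tested 25 were called lower, with a median log2FC of -3.84, and 13, 10 and 16 were called without E18.5 replicates 1, 2 and 3. With replicate 3 alone none was called and the median was 0.50. *Myl7*, the atrial light chain of myosin, was at 171, 187 and 5.53 CPM and then at 11.7, 9.55 and 4.91 CPM, and *Nppa*, an atrial peptide, was at 41.1, 51.7 and 0.216 CPM and then at most at 0.308 CPM. Of 28 thymus and T cell genes 3 were called lower, among them *Pax1* (0.0484, 21.01 and 0.0787 CPM, then 0 in each E18.5 lung). Of 9 skeletal muscle genes 2 were called, and of 7 liver genes 3 were lower and 1 higher. Unlike the heart list, the liver list kept a negative median with replicate 3 alone (-1.59 and then -0.72). *Afp*, a liver gene, was at 1.05, 2.32 and 1.38 CPM and then at 0.41, 0.19 and 0.33 CPM. Its log2FC was -2.33 ± 0.76, and -2.15 with replicate 3 alone. Leaving out the listed genes of heart, skeletal muscle, thymus and liver left 200 lower and 253 higher genes. *Gata4* (chosen after its values were seen), *Fbln2* and *Rbm20*, which are in none of these 4 lists, were also highest in replicates 1 and 2. *Fbln2* was at 57.3, 69.0 and 28.1 CPM and then at 20.7, 15.9 and 19.7 CPM (log2FC -1.45 ± 0.25, and -0.59 with replicate 3 alone). *Rbm20*, a splicing factor of titin, was at 8.83, 7.61 and 1.87 CPM and then at 1.85, 1.74 and 1.78 CPM, so that its fall was not seen in replicate 3.

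Cell cycle and DNA replication genes had no call past both cutoffs, but 21 of 64 were lower and 1 higher at the FDR alone, and 53 of 64 had a log2FC below 0 (median -0.19, and -0.21 with replicate 3 alone). *Plk1*, a mitotic kinase, was at 93.1, 93.8 and 96.2 CPM and then at 55.1, 59.97 and 72.5 CPM (log2FC -0.59 ± 0.11, FDR = 0.0037). *Top2a* had a log2FC of -0.11 ± 0.11 (FDR = 0.52). *Mki67* went the other way, at 366.7, 226.5 and 407.9 CPM and then at 468.8, 451.0 and 411.5 CPM. Its log2FC was 0.42 ± 0.17, which missed the FDR (0.10), and 0.12 with replicate 3 alone. *Mki67* was lowest in E15.5 replicate 2, and each E18.5 lung lay above each E15.5 lung. *Hmga2*, an oncofetal chromatin protein, was at 61.8, 78.0 and 74.2 CPM and then at 44.7, 43.03 and 51.4 CPM (log2FC -0.62 ± 0.14, FDR = 0.0091). With replicate 3 alone *Plk1* (log2FC -0.63, FDR = 0.051) and *Hmga2* (-0.69, FDR = 0.066) missed the FDR. *Plk1* and *Hmga2* were chosen after their values were seen. *Cdkn2b*, an inhibitor of the cell cycle, rose with a log2FC of 1.40 ± 0.30 (FDR = 0.0075) as the 1 call among 9 CDK inhibitors.

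Signalling pathways gave few calls. Of 47 Wnt genes 2 rose and 1 fell, and *Wnt7a* was at 1.598, 1.95 and 1.59 CPM and then at 4.37, 4.52 and 2.80 CPM (log2FC 1.19 ± 0.21, FDR = 0.0028). Of 40 genes of TGF-beta and BMP signalling 1 rose and 1 fell, the latter *Fst*, an activin antagonist (log2FC -1.83 ± 0.42, FDR = 0.010, and -1.67 with FDR = 0.084 from replicate 3 alone). Hedgehog, FGF and Notch genes gave no call among 17, 24 and 18 tested, although 8 FGF genes were higher at the FDR alone. *Fgf1* was at 22.4, 18.1 and 23.1 CPM and then at 35.6, 42.9 and 32.8 CPM (log2FC 0.81 ± 0.12, FDR = 0.0014). *Shh* was between 30.9 and 36.2 CPM in all 6 libraries (FDR = 0.28). Of 17 Hox genes *Hoxc5* fell (log2FC -2.26 ± 0.67, FDR = 0.032, and -2.11 with FDR = 0.19 from replicate 3 alone), 16 had a log2FC below 0, and the median was -0.36.

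The remaining lists gave few calls. Basal cell genes gave 0 higher and 1 lower of 9, lymphatic genes 0 and 1 of 11, smooth muscle genes 1 and 2 of 25, elastic fibre genes 0 and 1 of 23, neuron and Schwann cell genes 0 and 1 of 15, oncofetal and imprinted genes 0 and 2 of 28, and tissue-restricted splicing regulators 0 and 2 of 39. Both lower smooth muscle calls, *Casq2* and *Actc1*, are genes that heart muscle expresses, and their log2FC with replicate 3 alone were 0.62 and 0.24. Cartilage, thyroid, oesophagus and stomach, and brown fat genes gave no call among 19, 2, 9 and 7 tested. Macrophage genes gave no call among 24 tested, and of 18 neutrophil granule genes *Lyz1*, a lysozyme also made by AT2 cells, was the 1 that rose (log2FC 1.52 ± 0.23, FDR = 0.0016). Of 16 mast cell and megakaryocyte genes *Mcpt4* and *Hdc* rose. *Mcpt4* was near its floor at both ages, with 0.048, 0.039 and 0.039 CPM and then 0.10, 0.25 and 0.37 CPM. *Cpa3*, the first gene of the list, was not called (log2FC -0.60 ± 0.36, FDR = 0.26). *Hdc*, which makes histamine, was at 1.15, 1.85 and 2.40 CPM and then at 3.20, 5.05 and 3.02 CPM (log2FC 1.09 ± 0.24, FDR = 0.0085), with a log2FC of 0.64 from replicate 3 alone. Genes of MHC and the interferon response gave 1 lower call of 30. *H2-Aa*, a class II chain, was at 5.11 CPM in E15.5 replicate 2 and between 0.452 and 1.59 CPM elsewhere.

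Gene counts also differed by the length of the gene model. Among the 3196 genes with the longest exonic sequence (7297 bases or more) 660 were higher and 243 lower at the FDR alone, with a median log2FC of 0.08, and among the 3196 shortest (2160 bases or fewer) 235 were higher and 207 lower, with a median of -0.01. Past both cutoffs the order of the higher genes was the opposite, with 30 higher and 35 lower among the longest and 91 higher and 57 lower among the shortest. With replicate 3 alone the medians were 0.03 and 0.05. The part of RNA quality in these values was not tested.

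Splicing was measured as percent spliced in (PSI), the share of transcripts that include an exon, keep an intron or use a splice site, with events called at a minimum value (MV) of the PSI difference of at least 10 percentage points at probability 0.95. Libraries were matched by replicate number, which does not pair animals. Of 331318 events tested in matched libraries, 12 had a higher PSI (0.00362%) and 23 a lower PSI (0.00694%) at E18.5. Over all 9 pairs of libraries the calls were 5 higher (0.00151%) and 12 lower (0.00362%), and all of them were among those from matched libraries. Alternative splice sites of 1 intron are complementary and count as 2 events, so that the calls come from fewer genes than events. Some of the calls rest on few reads.

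Genes of splicing itself were among the events called both ways. *Clk1* and *Clk4* encode kinases that phosphorylate SR proteins. The PSI of the *Clk1* exon was 68.3, 74.4 and 72.7% at E15.5 and 40, 55.8 and 36.9% at E18.5 (71.8 ± 3.1% and 44.2 ± 10.1%, SD, n = 3, 154 to 409 reads per library). The *Clk4* exon was at 63.6, 69.1 and 80.6% and then at 32.8, 45.4 and 24.5% (MV -15.3 points, 64 to 189 reads). The exons were skipped more at E18.5 in each of the 3 lungs. An intron of *Srsf5*, an SR protein, was retained at 29.4, 33 and 37.1% and then at 11.5, 8.8 and 9.9% (MV -15.8 points, 626.2 to 1018 reads). An intron of *Ddx17*, an RNA helicase, was retained at 22.4, 20 and 19.6% and then at 4.1, 6.5 and 7.4% (MV -10.4 points, 744.5 to 1065.3 reads). The levels of the genes are on another scale, so that their changes were not compared in size with those of PSI. The log2FC was -0.59 ± 0.16 for *Clk1* (FDR = 0.025) and -0.59 ± 0.17 for *Clk4* (FDR = 0.027). It was -0.17 ± 0.14 for *Srsf5* (FDR = 0.44) and 0.13 ± 0.07 for *Ddx17* (FDR = 0.21). After birth the mean PSI of the *Clk1* exon was 69.7% at P5 and 45.6% at P8, and that of the *Srsf5* intron 17.6% and 24.4%. For the *Clk4* exon it was 38.8% and 41.8%, and for the *Ddx17* intron 23.4% and 23.7%.

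The other named events were of varied genes. In *Tmem131* 1 of a pair of 3′ splice sites went from 91.5, 100 and 100% to 54.5, 64.1 and 75.4%. The MV was -19.4 points, with at least 71 reads in each library. In *Gigyf1* 1 of a pair of 5′ splice sites went from 88.1, 100 and 100% to 67.5, 55.3 and 70.4% (33 to 49 reads). The other site of each pair rose by complement. An exon of *Krit1*, a gene of endothelial junctions, was the 1 exon called higher both ways, from 79.7, 67.9 and 67.5% to 100, 96.4 and 93.0% (MV 16.5 points, 117 to 204 reads). An exon of *Atg4c* went from 100% in each E15.5 lung to 82.2, 80.5 and 80%, and one of *Lcorl* from 88.7, 88.0 and 74.8% to 51.8, 56.5 and 57.8% (117 to 157 reads). An intron of the noncoding RNA *Bvht* fell from 63, 51.2 and 55.3% to 27.6, 24.1 and 28.9% (54 to 132 reads), and a 5′ splice site of *D16Ertd472e* from 38.6, 46.7 and 41.9% to 12.9, 16.1 and 12.5% (30 to 56 reads).

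**Figure D5:**
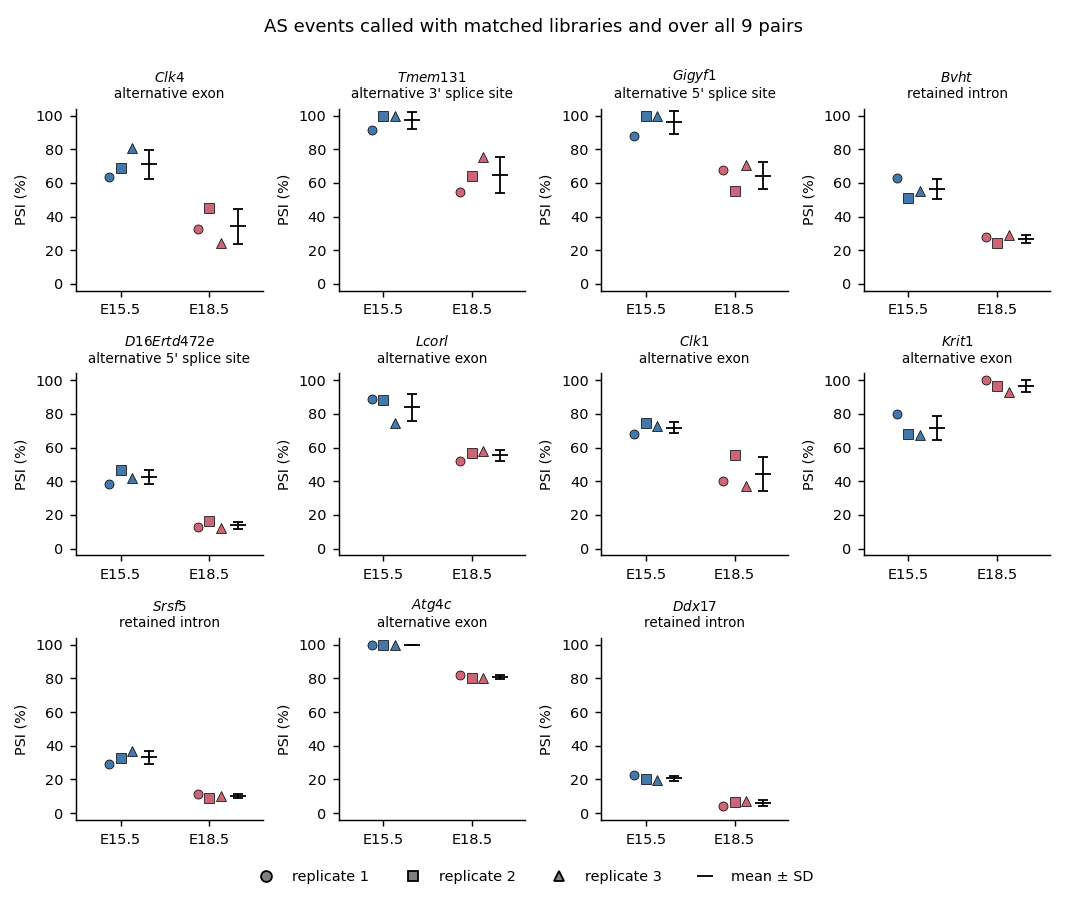
PSI (y axis, %) in each library of 11 AS events with a gene name called both in matched libraries and over all 9 pairs, 1 per complementary pair; symbols mark replicates and the bar is the mean ± SD of 3 libraries. The ages do not overlap in any panel, and PSI of the plotted event is lower at E18.5 in all but *Krit1* (71.7 to 96.5%). For *Tmem131* and *Gigyf1* the direction depends on the site plotted. The other site of the pair rose in the mean from 2.8 to 35.4% and from 4.0 to 35.6%.

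Retained introns went down as a class. All 5 introns called in matched libraries had a lower PSI at E18.5. Among events with a mean PSI of 5 to 95% over the 6 libraries, 4166 were retained introns, of which 339 fell and 114 rose by at least 10 points in the mean, with a median change of -1.68 points. The median PSI of these introns was 10, 10.3 and 10.6% in the E15.5 libraries and 8.88, 7.90 and 8.11% in the E18.5 libraries, so that the ages did not overlap. For 489 introns (11.7%) each E15.5 lung was above each E18.5 lung, and for 132 (3.17%) each was below. Over events of all types with intermediate PSI the shares were 7.83% and 4.2%. With E15.5 replicate 3 alone, 1548 of the 4166 introns were above and 650 below all 3 E18.5 libraries. Over all types these counts were 4041 and 3027 of 14133 events. Falls and rises of at least 10 points over all types numbered 1312 and 937. Alternative 3′ splice sites had 282 falls and 282 rises of at least 10 points, and alternative exons 479 falls and 327 rises with a median change of -0.67 points.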

How the data were processed

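RNA of whole lungs was sequenced by the authors as mRNA libraries. According to the submitters' notes and the study's methods, reads were mapped to mm10 with TopHat2 2.1.1 and Bowtie2 2.3.4, and the deposited count of each gene was made with HTSeq 0.10.0. The deposited CPM values are counts divided by the mapped reads of the library. CPM steps gave whole reads, and 100% of the recovered reads equalled the deposited counts of the same genes. The deposited PSI values, in percent, and the quality strings with the reads of each AS event were made by the authors with VAST-TOOLS.

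Genes that reached 1 CPM in 3 or more of the libraries were tested on the counts with edgeR 4.0.16 (TMM, quasi-likelihood fit over all 12 libraries, contrast E18.5 minus E15.5, Benjamini-Hochberg adjustment), and called at a log2FC past 1 in size and an FDR under 0.05. The fit was repeated with E15.5 replicate 3 as the lone E15.5 library. For AS events MV was computed at probability 0.95 from Beta distributions of inclusion and exclusion reads. Events needed a known PSI and a coverage score above the lowest in all 12 libraries. The study's limit on low read counts was applied too, which lets fewer than 3 libraries fall under it. Events lack coordinates in the files used, and gene names of events came from the study's supplements. Alternatives used limma 3.58.1, DESeq2 1.42.0, other scalings, filters and omitted libraries. The scripts were tested on simulated data.

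The comparison, gene lists and members were chosen with earlier results of these data known. Named genes were, of each of 47 lists, up to 5 called members with a mean of at least 1 CPM by size of log2FC and the first 2 members, and, over all genes, the 12 largest called log2FC in each direction with a mean of at least 5 CPM and no overlap, where a lower gene also had to be called with replicate 3 alone. Named AS events were those with a gene name called in matched libraries and over all 9 pairs. Not every gene that the rule names is printed. Genes named outside the rule were chosen after their values were seen: *Mcidas*, *Ccno*, *Dnah5*, *Ccdc113*, *Cfap46*, *Ctsh*, *Plk1*, *Hmga2*, *Gata4*, *Col20a1* and the levels of *Clk1*, *Clk4*, *Srsf5* and *Ddx17*. 2 items that the rule names are not reported here.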

Additional observations from a re-analysis of the deposited data

How the results depend on the processing

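Against 254 genes higher at E18.5 and 233 genes lower at E18.5, a fit to the 6 libraries alone gave 169 and 195, a filter of at least 5 CPM gave 178 and 114, limma on log2(CPM + 1) gave 71 and 79, and the FDR alone gave 1863 and 1578. With E15.5 replicate 3 as the lone E15.5 library the counts were 150 and 25, and for the 25 the FDR alone gave 241. Other scalings, no filter, and DESeq2 gave 248 to 302 higher and 228 to 295 lower. Reads recovered from CPM (chosen after seeing the data) gave 252 and 229, and leaving out listed genes of other organs (also chosen then) 253 and 200. Leaving out 1 library gave 174 (without E18.5 replicate 2) to 347 higher (without E18.5 replicate 3) and 110 (without E18.5 replicate 2) to 327 lower (without E15.5 replicate 3), with 131 lower if E18.5 replicate 1 was left out and 136 if E15.5 replicate 2 was. AS events, 12 higher and 23 lower, were 5 and 12 over all 9 pairs, 45 and 107 at an MV of 5 points, 2 and 2 at 20 points, and 170 and 143 with E15.5 replicate 3 against the E18.5 libraries. Leaving out 1 replicate pair gave 52 to 77 higher and 80 to 120 lower. limma on logit PSI gave 0 and 0, with 306 higher and 653 lower at an unadjusted p under 0.05. With replicate 3 as the lone E15.5 library, the log2FC of 9 named genes that were called in 1 of the 2 fits changed sign: *Nppb* 3.59, *Casq2* 0.62, *Actc1* 0.24, *H2-Aa* 1.38, *Sln* 0.53, *Csrp3* 0.98, *Myh6* 0.48, *Myl7* 0.65 and *Cav3* 1.05. Of 2489 values of 157 named genes under alternatives, 2282 kept their side of the threshold, 181 lost and 17 gained a call. Where no construction is named, the cause was not tested.

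Replicate numbers did not pair the libraries: deviations of same-numbered libraries correlated at -0.015, 0.069 and 0.144. With the replicate block edgeR gave 241 higher and 215 lower genes, and limma on logit PSI gave 0 and 0 events, with 316 higher and 594 lower at an unadjusted p under 0.05.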
